A study of Sus scrofa with 14 samples.

Results

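SPP1 encodes osteopontin, a secreted matrix protein that integrins bind, and MUC1 encodes a membrane mucin that covers the apical face of uterine epithelium. Both were followed in pig endometrium on 14 Affymetrix porcine arrays, 1 per gilt. The members are all probe sets whose single gene symbol is SPP1 or MUC1: 2 genes of the 6765 named through a single symbol, and 3 of the 23935 probe sets on the array that are not controls. SPP1 has 1 probe set (Ssc.101.1.S1_at). MUC1 has 2, named here by their signal as the brighter (Ssc.17222.1.S1_at) and the dimmer (Ssc.17222.1.A1_at).

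All animals were crossbred cyclic gilts aged 8 to 10 months, with no embryos. Each was dosed when its second estrus began and a further time 24 h later, with estrogen or with corn oil alone. Gilts were sampled on day 13 or day 15 of what the labels call pseudopregnancy, and the endometrium was collected once the uterus had been flushed with 20 mL of saline. The 4 groups were corn oil at day 13 (control, n = 4), estrogen at day 13 (n = 4), corn oil at day 15 (control, n = 3) and estrogen at day 15 (n = 3). The estrogen compound and its dose are not given in the sources used here. The design asks how early estrogen exposure altered the endometrium around the days of attachment, and how the endometrium differed between those days.

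The pig conceptus does not burrow into the uterine wall: trophoblast attaches to the surface of the luminal epithelium. Osteopontin carries an Arg-Gly-Asp motif and can bridge integrins on trophoblast and epithelium, and estrogen is known to raise SPP1 in porcine luminal epithelium. MUC1 extends beyond other surface proteins and is generally described as a barrier to adhesion, which is removed by loss of expression or by proteases that shed its outer part.

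In the deposited values every array had the same trimmed mean, 500.1 signal units, so a level is relative to the rest of its array; how the authors reached this is not given in the sources used here. Median signals lay between 177 and 217. In 3 arrays, replicate 1 of the day 13 controls, replicate 3 of the day 15 controls and replicate 2 of estrogen at day 15, the median correlation with the other arrays was 0.860 to 0.885, against 0.927 to 0.952 in the remaining 11, and results that rest on them are given with and without them. Leaving them out leaves 2 gilts in each day 15 group. The endometrial label was checked against markers: all 10 epithelial markers measured were above the limit used for dim probe sets, while all 3 trophoblast markers measured (CYP17A1, CYP19A1 and IFNG) were below it. In this bulk tissue, fewer cells of a type and less RNA per cell cannot be told apart.

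The SPP1 probe set was bright in every group and varied far more between gilts of the same group than between groups. In controls at day 13, the SPP1 signals were 21660, 8747, 3827 and 18113 in replicates 1 to 4. In controls at day 15 they were 11201, 13864 and 11242. The day 13 controls therefore lay on both sides of the day 15 controls, which were close together (range 11201 to 13864). In estrogen-treated gilts at day 13 the SPP1 signals were 11797, 13574, 1587 and 10159, and at day 15 they were 11258, 12752 and 4857. In each estrogen group 1 gilt was low, replicate 3 on both days, and every pair of groups compared overlapped.

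On the log2(signal + 16) scale used for all tests, the SPP1 level was 13.56 ± 0.18 (SD, n = 3) in controls at day 15, 13.39 ± 1.14 (n = 4) in controls at day 13, 13.12 ± 0.76 (n = 3) with estrogen at day 15 and 12.80 ± 1.45 (n = 4) with estrogen at day 13. No neighbours in this order differed beyond their spread. The highest SPP1 signal was 13.6 times the lowest. The within-group SD of SPP1 was 1.07 log2 units, larger than that of 97.7% of the 16754 probe sets tested, whose median was 0.35. Without the 3 arrays that stand apart the SD was 1.17, larger than that of 99.5%. Group membership accounted for 9.34% of the variance of SPP1, against 39.8% for the brighter MUC1 probe set and 17.6% for the dimmer one. These shares are not adjusted for the number of groups.

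The brighter MUC1 probe set was highest in controls at day 13 and lowest in controls at day 15. The signals of this probe set were 1123, 1368, 2024 and 1311 in controls at day 13. In controls at day 15 they were 932, 903 and 490. All 4 day 13 controls were above all 3 day 15 controls. With estrogen, the brighter MUC1 probe set gave 787, 743, 1396 and 1212 at day 13, and 1280, 576 and 1198 at day 15. These estrogen groups overlapped each other and both control groups.

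The mean log2 level of the brighter MUC1 probe set was 10.49 ± 0.36 (SD, n = 4) in controls at day 13, 9.99 ± 0.44 (n = 4) with estrogen at day 13, 9.93 ± 0.63 (n = 3) with estrogen at day 15 and 9.57 ± 0.51 (n = 3) in controls at day 15. Only the ends of this order were separated in every gilt. Its highest signal was 4.13 times its lowest, and its within-group SD of 0.48 was larger than that of 73.9% of the probe sets tested.

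The dimmer MUC1 probe set did not follow the brighter one closely. Its signals were 80.7, 96.7, 141 and 151 in controls at day 13 and 82.2, 158 and 107 in controls at day 15. With estrogen they were 93.5, 74.4, 116 and 80.6 at day 13 and 124, 89.6 and 127 at day 15. All groups of this probe set overlapped, and its mean log2 levels ran from 6.73 ± 0.24 (SD, n = 4) with estrogen at day 13 to 7.02 ± 0.38 (n = 4) in controls at day 13, not far above the limit for dim probe sets, 6.35. Across the 14 arrays the MUC1 probe sets correlated with r = 0.39 and rho = 0.40, and across the 11 arrays with r = 0.48 and rho = 0.39. Most of what follows on MUC1 concerns the brighter probe set, and the difference between the probe sets limits how far it stands for the gene.

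**Figure D1:**
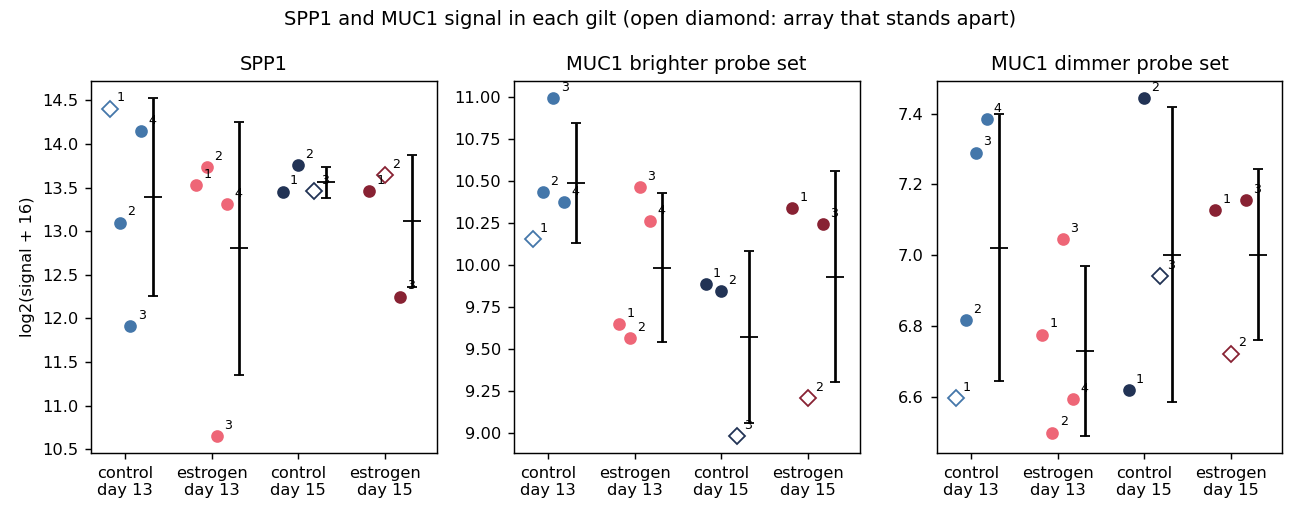
Level of the SPP1 probe set and of both MUC1 probe sets (vertical axes, log2(signal + 16)) in each gilt, by treatment and day. Points carry replicate numbers, open diamonds are the 3 arrays that stand apart, and bars show the mean and SD. The 4 control gilts of day 13 all lie above the 3 of day 15 for the brighter MUC1 probe set, whereas the SPP1 groups overlap and estrogen day 13 replicate 3 lies far below the others of its group.

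Estrogen was not shown to change either gene on either day. In limma's moderated test over 16754 probe sets, 0 of the 3 members passed an adjusted p of 0.05 at day 13 or at day 15, and neither did any other probe set (0% called on each day). With all arrays, 2.89% of all probe sets (485) had an unadjusted p below 0.05 at day 13 and 3.83% (642) at day 15. Over both days the share was 3.22% (539), with 0% after adjustment. In this fit of all arrays no member was among them. The groups did not overlap for 2.72% of all probe sets at day 13 and 7.31% at day 15, and for 0 of the 3 members on either day. SPP1 was lower with estrogen by 0.58 log2 units at day 13 (SE 0.65, 95% interval -1.98 to 0.81, limma adjusted p = 1.00, exact permutation p = 0.571). At day 15 SPP1 was lower by 0.44 (SE 0.75, interval -2.05 to 1.17, limma adjusted p = 0.990, exact permutation p = 0.6). Over both days the SPP1 difference was -0.51 (SE 0.50, interval -1.58 to 0.55, exact permutation p = 0.331), an interval that runs from 0.335 to 1.47 times the control level. The direction at day 13 depended on 1 gilt: without estrogen day 13 replicate 3 the difference was 0.13.

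The brighter MUC1 probe set was 0.50 log2 units lower with estrogen at day 13 (SE 0.31, interval -1.17 to 0.16, limma adjusted p = 1.00, exact permutation p = 0.2) and 0.36 higher at day 15 (SE 0.36, interval -0.40 to 1.13, limma adjusted p = 0.985, exact permutation p = 0.5). The difference between these estrogen effects was 0.86 (SE 0.47, interval -0.15 to 1.88, limma adjusted p = 0.990), in a test that had 3.55% of all probe sets below an unadjusted 0.05 and called 0% after adjustment. Without the 3 arrays that stand apart the day 13 difference was -0.62 (SE 0.23, limma adjusted p = 0.687) and the difference between the effects was 1.04 (SE 0.38, adjusted p = 0.756). Before adjustment these limma p-values were 0.0206 and 0.0179, in tests that had 6.64% and 6.39% of all probe sets below 0.05. Day 13 gilts of the same replicate number deviated together, as described with the processing, and within these 4 pairs the brighter MUC1 probe set was lower with estrogen in 4 of 4, by -0.50, -0.87, -0.53 and -0.11. The exact sign-flip permutation p was 0.125, the smallest that 4 pairs can give. SPP1 was lower with estrogen in 3 of the 4 pairs (exact permutation p = 0.250). The dimmer MUC1 probe set was also lower in 3 of the 4 (exact permutation p = 0.250), and 0.18 higher in the pair numbered 1. The pairing itself was drawn from these data.

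Between the days, MUC1 was separated in control gilts but not past the adjusted threshold. The brighter probe set was 0.92 log2 units lower at day 15 than at day 13 in controls, or 1.89-fold (SE 0.33, 95% interval -1.63 to -0.20). Its limma p was 0.0157 before adjustment and 0.966 after, and its rank by p was 155 of 16754. The exact permutation p was 0.0286, the smallest that 4 against 3 gilts can give, and 0.514 after Benjamini-Hochberg adjustment over the 18 exact tests on the members. The groups of this comparison did not overlap for 1 of the 3 members, and for 3.52% of all probe sets tested (590). At an unadjusted limma p below 0.05, 3.92% of all probe sets were past the threshold in this comparison, 2.05% in the lower direction, and 0% passed after adjustment. The dimmer MUC1 probe set did not share the difference (-0.02, SE 0.27, interval -0.59 to 0.55).

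In estrogen-treated gilts the brighter MUC1 probe set differed by only -0.05 between the days (SE 0.33, interval -0.77 to 0.66, exact permutation p = 0.914), and by 0.31 (SE 0.26) without the arrays that stand apart. The test of whether the day difference varied with treatment is the same interaction as above and was not past the threshold. Over both treatments the day difference was -0.49 (SE 0.24, interval -0.99 to 0.02, exact permutation p = 0.109). At an unadjusted limma p below 0.05, 8.61% of all probe sets were past the threshold between the days with estrogen and 8.56% over both treatments, against 0 of the 3 members, and groups did not overlap for 14.5% with estrogen. SPP1 differed between the days by 0.17 in controls (SE 0.70, interval -1.34 to 1.68) and by 0.31 with estrogen (SE 0.70, interval -1.20 to 1.82). As ratios, these SPP1 intervals ran from 0.395 to 3.20 and from 0.437 to 3.53 times the day 13 level.

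**Figure D2:**
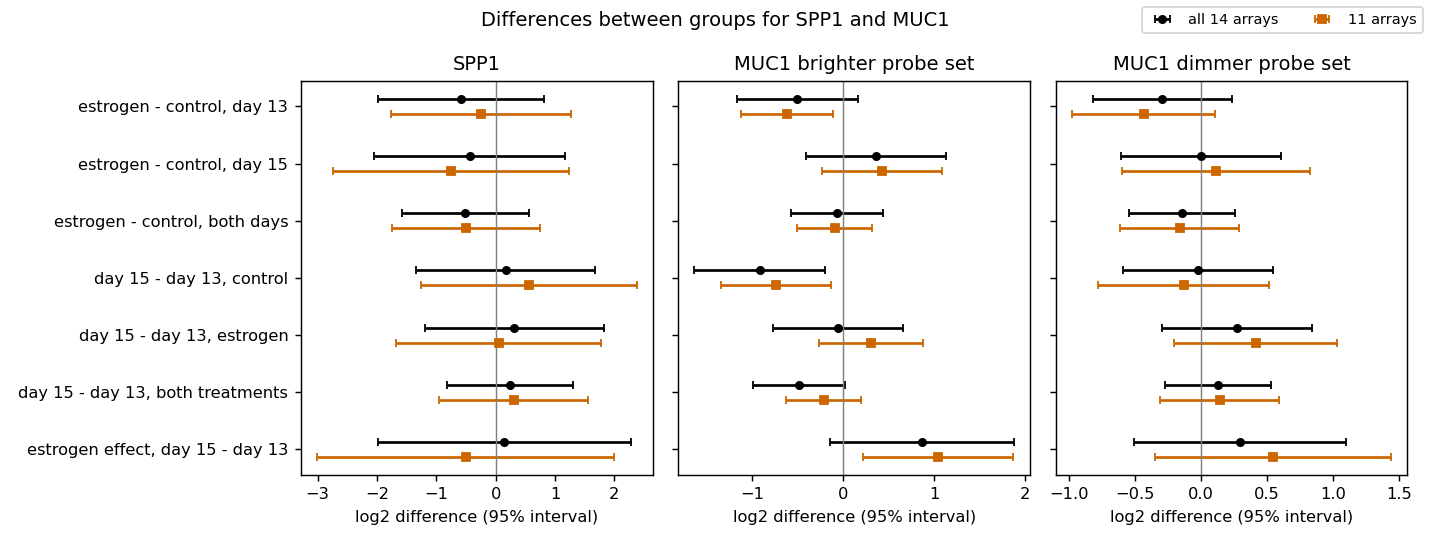
Log2 differences of SPP1 and both MUC1 probe sets (horizontal axes, log2 units, 1 scale per panel) for the 7 comparisons, with 95% intervals, from all 14 arrays (black) and from the 11 left without those that stand apart (orange). The intervals of SPP1 are the widest and all include 0; for the brighter MUC1 probe set the day 15 minus day 13 difference in controls is -0.92 with all arrays and -0.74 with 11.

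Other measures moved with the MUC1 level. RNA quality was scored as the mean standardised difference between 3' and 5' control probe sets of GAPDH, beta-actin and EF1A, where a higher score means relatively less signal from the 5' end. This score ranged from -0.45 to 0.31 in controls at day 13, from -1.32 to 0.49 in controls at day 15, from -0.75 to 0.05 with estrogen at day 13 and from -0.76 to 1.88 with estrogen at day 15. The lowest score belonged to control day 15 replicate 3, which also had the lowest signal of the brighter MUC1 probe set. With the score as a covariate, the brighter MUC1 probe set was lower at day 15 by 0.67 in controls (SE 0.23, limma adjusted p = 1.00) and by 0.62 with estrogen (SE 0.26, adjusted p = 0.267). Over both treatments this value was -0.65 (SE 0.16, limma adjusted p = 0.134), and the difference between treatments was 0.05 (SE 0.37). Without control day 15 replicate 3 and with no covariate, the day difference in controls was -0.62.

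Deviations of MUC1 from its group means followed those of the RNA quality score from its own group means. Over the 11 arrays r was 0.59 (exact permutation p = 0.0226, 0.0790 after adjustment over 7 relations) and rho was 0.67 (exact permutation p = 0.00521, 0.0365 adjusted). Without the 2 gilts farthest from the median, r was 0.42. Over all 14 arrays the same deviations gave r = 0.81 (exact permutation p = 0.00222, 0.0155 adjusted) and 0.64 without the 2 farthest gilts. Without removing the group means the 11 arrays gave r = 0.36 (permutation p = 0.275) and all 14 gave r = 0.59 (permutation p = 0.0259, 0.181 adjusted). SPP1 deviated the other way. Its deviations correlated with those of the score over the 11 arrays at r = -0.53 (exact permutation p = 0.0920) and rho = -0.61 (exact permutation p = 0.0399, 0.121 adjusted). Without the 2 farthest gilts r was -0.31. Over all 14 arrays the SPP1 deviations gave r = -0.34 (exact permutation p = 0.111) and rho = -0.49 (exact permutation p = 0.0384, 0.0897 adjusted).

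Epithelial markers were considered because MUC1 is an epithelial gene. Of 10 markers tested, 2 were higher and 8 lower at day 15 than at day 13 in controls, with a median difference of -0.25, where 47.6% of all probe sets were higher; 0 were past the adjusted threshold or an unadjusted 0.05. Without the arrays that stand apart the counts were again 2 and 8, with a median of -0.41. In that setting 5 of the markers were lower at an unadjusted limma p below 0.05, where 5.12% of all probe sets were below it in either direction. Of the markers 0 passed the adjusted threshold. Their summed signal was 48697 to 54096 in controls at day 13. In controls at day 15 it was 44303, 40888 and 56523, and the last of these is the array that stands apart, so both remaining day 15 controls were below every day 13 control for these markers as for MUC1. With estrogen it was 46364 to 48470 at day 13 and 45589 to 51447 at day 15. The difference between the estrogen effects was above 0 for 7 markers and below 0 for 3 with all arrays (median 0.23). Of all probe sets 54.4% were above 0. Without the arrays that stand apart 10 markers were above 0 and 0 below (median 0.40). There 2 had an unadjusted limma p below 0.05, as did 6.39% of all probe sets. MUC1 followed the mean epithelial level over the 11 arrays with r = 0.57 (permutation p = 0.0667) and rho = 0.77 (permutation p = 0.00726, 0.0508 adjusted). Once group means were removed r was 0.29 (exact permutation p = 0.332). Over all 14 arrays r was 0.15 (permutation p = 0.610), and -0.25 with group means removed (exact permutation p = 0.580). The part of epithelial content in the MUC1 difference was not tested.

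Macrophages also make osteopontin, so their markers were set beside SPP1. The summed signal of 9 macrophage markers was 1328 to 5251 in controls at day 13 (1328 to 1919 without the array that stands apart), 2617 to 4553 in controls at day 15, 1458 to 1772 with estrogen at day 13 and 3081 to 5676 with estrogen at day 15. The defining marker ITGAM was below the limit for dim probe sets. MRC1, the macrophage mannose receptor, was the 1 probe set past the adjusted threshold in any of the 7 comparisons with all arrays (0.00597% of those tested): it was higher at day 15 over both treatments by 2.01 log2 units (SE 0.24, limma adjusted p = 0.0130). Without the arrays that stand apart, 7 of the 8 macrophage markers tested were past the adjusted threshold over both treatments, all higher at day 15 (median of the 8, 1.35; 0.985% of all probe sets called), and 5 of 8 with estrogen (1.32% called). The correlation of SPP1 was r = -0.007 to the mean macrophage level over 11 arrays (permutation p = 0.984) and rho = -0.22. It was -0.52 without the 2 farthest gilts and -0.42 with group means removed (exact permutation p = 0.177), and over all 14 arrays it was 0.09 (permutation p = 0.768).

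The levels of SPP1 and MUC1 correlated negatively, with values that depended on the arrays and on a pair of gilts. Over the 11 arrays their correlation was r = -0.56 (permutation p = 0.0772, 0.270 adjusted over 7 relations) and rho = -0.61 (permutation p = 0.0524, 0.131 adjusted). With group means removed it was r = -0.77 (exact permutation p = 0.0156, 0.0790 adjusted) and rho = -0.71 (exact permutation p = 0.0521). Over all 14 arrays it was r = -0.46 (permutation p = 0.0993), and with group means removed r = -0.61 (exact permutation p = 0.0130, 0.0456 adjusted) and rho = -0.67 (exact permutation p = 0.00550, 0.0192 adjusted). The relation rested on few gilts: without estrogen day 13 replicate 3 and control day 13 replicate 3, r was -0.28 over the 11 arrays and -0.13 over all, and with group means removed -0.40 and -0.43. Those gilts had the lowest SPP1 signals of the 11 arrays, 1587 and 3827, and the highest signals of the brighter MUC1 probe set, 1396 and 2024.

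**Figure D3:**
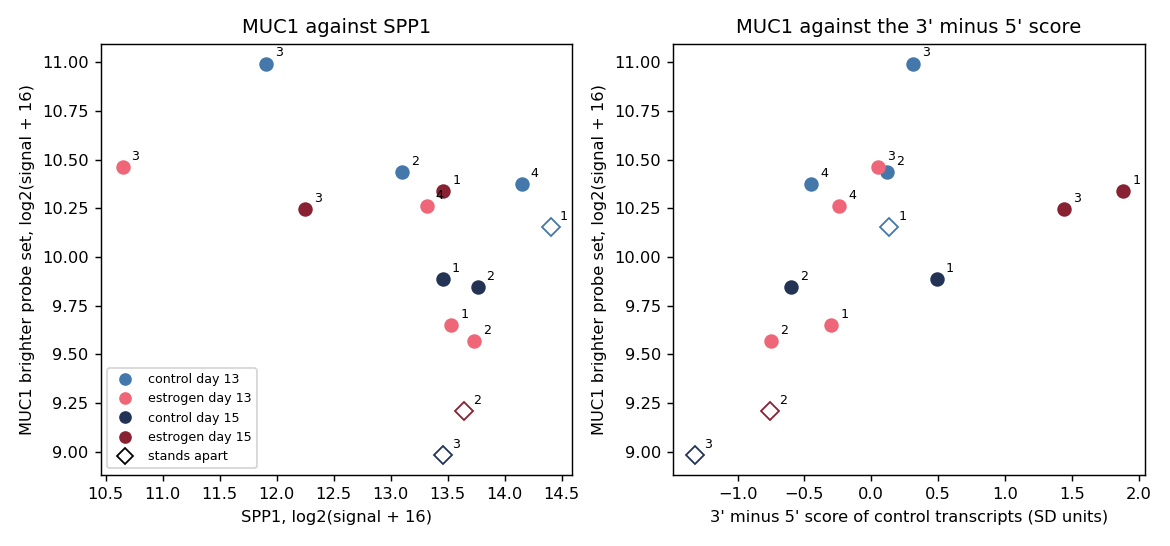
Log2(signal + 16) of the brighter MUC1 probe set (vertical axes) against SPP1 (left, log2) and the RNA quality score (right, SD units), 1 point per gilt, coloured by group, with replicate numbers and open symbols for the 3 arrays that stand apart. The gilts with the lowest SPP1 among the 11 remaining arrays have the highest MUC1, and the correlation of -0.56 falls to -0.28 without them.

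The genes with levels most like SPP1 differed with the arrays used. Over all 14 arrays the highest correlations were those of SEC31A, a coat protein of vesicles leaving the endoplasmic reticulum (r = 0.85), GAPVD1 (0.81), METTL13 (0.81), AAR2 (0.79) and IDH3A (0.78), and the lowest those of HIPK1 (-0.85) and PTPN4 (-0.84). Over the 11 arrays they were ALDH1A1, which makes retinoic acid from retinaldehyde (r = 0.97), QPCTL (0.93), GRAMD1B (0.93), RAB7A (0.92) and LOC100517166 (0.91), with NUSAP1 (-0.92) and SMIM22 (-0.91) lowest. The brightest ALDH1A1 probe set was lowest in the same gilt as SPP1, estrogen day 13 replicate 3, with 7492 signal units against 10289 to 20080 elsewhere. ALDH1A1 kept r = 0.76 over 14 arrays and its other probe set gave 0.85 over 11, whereas GRAMD1B fell to 0.15 over 14. NUSAP1 gave only -0.14 over 14 arrays. Other probe sets of the same gene gave values as weak as -0.19 for NUSAP1 and -0.33 for SMIM22 over 11 arrays. Over 14 arrays they gave values as low as 0.49 for SEC31A and 0.40 for AAR2. These are descriptions of few points that share the same libraries: 119 of the other 16753 probe sets had r above 0.8 with SPP1 over 11 arrays, and 8 over 14.

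For the brighter MUC1 probe set the most alike over 14 arrays were ACP2, a lysosomal acid phosphatase (r = 0.92), ACTG1, cytoplasmic gamma-actin (0.91), LOC100526084 (0.88), WFDC2, a secreted epithelial protease inhibitor (0.87), and SPOP, an adaptor of a ubiquitin ligase (0.86). EPRS (-0.96) and SUV39H2 (-0.92) were lowest. Over the 11 arrays they were SPOP (0.91), ADAMTS1, a secreted protease (0.91), SMIM22 (0.90), TNKS2 (0.89) and NPEPPS (0.89), with TMEM19 (-0.95) and DYNC1I1 (-0.95) lowest. SPOP was named in both sets. Other probe sets of the same gene often gave other values, as low as 0.08 for ACP2 and -0.10 for WFDC2 over 14 arrays. SMIM22 stands at opposite ends for SPP1 and MUC1, but through different probe sets.

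Among the receptors of osteopontin, 6 of 11 listed genes were measured and tested, all integrin chains (ITGAV, ITGB1, ITGB3, ITGB5, ITGA5 and ITGA8). CD44, the listed receptor that is not an integrin, was not measured. Of the tested genes 0 passed the adjusted threshold in any comparison. With all arrays, ITGA8 alone was below an unadjusted limma p of 0.05, with estrogen and over both treatments between the days. With estrogen at day 13, 0 were higher and 6 lower than in controls, with a median of -0.35, where 46.8% of all probe sets were higher and their median was -0.02. Without the arrays that stand apart the counts were again 0 and 6, with a median of -0.25. In that setting ITGAV, the alpha-v chain, was lower with estrogen at an unadjusted limma p below 0.05, at day 13 and over both days. Of all probe sets 6.64% and 8.67% were below it there, and ITGAV did not pass the adjusted threshold. With all arrays, ITGB5, a beta subunit paired with the alpha-v chain, had the lowest p of these receptors at day 13 (-0.48, SE 0.23, limma adjusted p = 1.00). ITGB5 was 2601 in control day 13 replicate 1, an array that stands apart, and 1207 to 1336 in the other day 13 controls; without such arrays its difference was -0.22. ITGA8, an alpha chain of an osteopontin receptor, had the lowest p between the days (-0.64 over both treatments, SE 0.18, limma adjusted p = 0.329). The ITGA8 signals with estrogen were 115, 123, 210 and 154 at day 13 and 99.1, 76.8 and 64.4 at day 15, with no overlap, as for 14.5% of all probe sets in that comparison.

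Of 12 other adhesion ligands of the matrix, 10 were measured and 7 tested, and 0 passed the adjusted threshold. With all arrays FBLN1 alone was below an unadjusted 0.05, in 1 comparison. At day 15, 6 were higher and 1 lower than at day 13 in controls (median 0.27), and 5 were higher and 2 lower with estrogen (median 0.29), where 47.6% and 52.3% of all probe sets were higher. These directions rested on the arrays that stand apart: without them 3 were higher and 4 lower in each treatment, with medians of -0.03 in controls and -0.30 with estrogen. FBLN1, a matrix glycoprotein of basement membranes, had the lowest p with estrogen (1.13, SE 0.52, limma adjusted p = 0.570). The FBLN1 signals with estrogen were 850 to 1688 at day 13 and 2198 to 4515 at day 15. They did not overlap, as for 14.5% of all probe sets in that comparison. IBSP, the bone sialoprotein that stands near SPP1 in the gene order of the Sscrofa11.1 RefSeq annotation, was measured but too dim to be tested.

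Among enzymes that modify or cleave osteopontin, 8 of 12 were measured and 6 tested, and 0 passed the adjusted threshold with all arrays, with MMP2 below an unadjusted 0.05 in 5 comparisons and MMP7 in 2. MMP2, a gelatinase, had the lowest p in 6 of the 7 comparisons. Its signals were 5147, 2818, 3875 and 4062 in controls at day 13 and 1933, 2034 and 2726 in controls at day 15. With estrogen MMP2 gave 2160, 1670, 3354 and 3524 at day 13 and 1778, 1937 and 1225 at day 15. The day 15 gilts were thus the lower ones in controls, without overlap, and mostly the lower ones with estrogen; in controls 3.52% of all probe sets did not overlap. Over both treatments the MMP2 difference between the days was -0.73 (SE 0.20, limma adjusted p = 0.304), and -0.81 (SE 0.21, adjusted p = 0.105) without the arrays that stand apart.

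MMP7, matrilysin, which cleaves osteopontin, was the listed enzyme most dependent on those arrays. Its signals were 5053, 83.3, 13.4 and 14.5 in controls at day 13, 289, 154 and 5657 in controls at day 15, 112, 55.3, 63.4 and 111 with estrogen at day 13, and 661, 18861 and 306 with estrogen at day 15. The highest value in 3 of the groups belonged to the array that stands apart. In the 11 other arrays every day 15 signal was above every day 13 signal. There MMP7 was 2.30 log2 units higher at day 15 over both treatments (SE 0.37, limma adjusted p = 0.0115), a comparison in which 0.985% of all probe sets were called. MMP7 was named after its values were seen.

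Of 12 other mucins and surface glycoproteins, 4 were measured and 3 tested (MUC4, SDC1 and SDC4). Of these 0 passed the adjusted threshold or an unadjusted 0.05 with all arrays. With all arrays 0 were higher and 3 lower with estrogen at day 13 (median -0.48), where 46.8% of all probe sets were higher, but without the arrays that stand apart 1 was higher and 2 lower (median -0.06). Their summed signal was 6982 in control day 13 replicate 1, which stands apart, and 2699 to 4670 in the other day 13 controls. MUC4, a large membrane mucin, had the lowest p of these between the days with estrogen (0.61, SE 0.41, limma adjusted p = 0.685). The MUC4 signals with estrogen were 1375 to 2730 at day 13 and 2949 to 3898 at day 15. They did not overlap, as for 14.5% of all probe sets in that comparison. Of 11 O-glycosylation enzymes of mucins, 4 were measured and tested, 2 higher and 2 lower at day 15 in each treatment. With all arrays 0 passed the adjusted threshold and 1 an unadjusted 0.05. Without the arrays that stand apart 4 were higher and 0 lower in controls, and 3 higher and 1 lower with estrogen. GALNT7, which adds N-acetylgalactosamine to mucin chains, had the lowest p (0.91 between the days with estrogen, SE 0.39, limma adjusted p = 0.554).

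All 4 listed proteases that shed MUC1 or related surface proteins were tested, and 0 passed the adjusted threshold. With all arrays ADAM10 was below an unadjusted 0.05 in 3 comparisons. Its signals were 193, 280, 287 and 391 in controls at day 13, 288, 312 and 405 in controls at day 15, 304, 351, 383 and 309 with estrogen at day 13, and 84.0, 282 and 209 with estrogen at day 15. The estrogen day 15 gilts were below all estrogen day 13 gilts and all control day 15 gilts, comparisons in which 14.5% and 7.31% of all probe sets did not overlap. The ADAM10 difference between the days with estrogen was -0.90 (SE 0.32, limma adjusted p = 0.456), and -1.23 (SE 0.28, adjusted p = 0.0563) without the arrays that stand apart.

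Of 8 partners of the MUC1 cytoplasmic tail, 4 were measured and tested (CTNNB1, GRB2, EGFR and JUP), and 0 passed the adjusted threshold. With all arrays EGFR and JUP were below an unadjusted 0.05 in 1 comparison each. EGFR, the epidermal growth factor receptor, differed by -0.73 between the days in controls (SE 0.33, limma adjusted p = 0.966). The EGFR signals there were 4712, 2802, 2889 and 1406 at day 13 and 2264, 1553 and 1227 at day 15, and the groups overlapped. Without the arrays that stand apart the EGFR difference was -0.26.

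**Figure D4:**
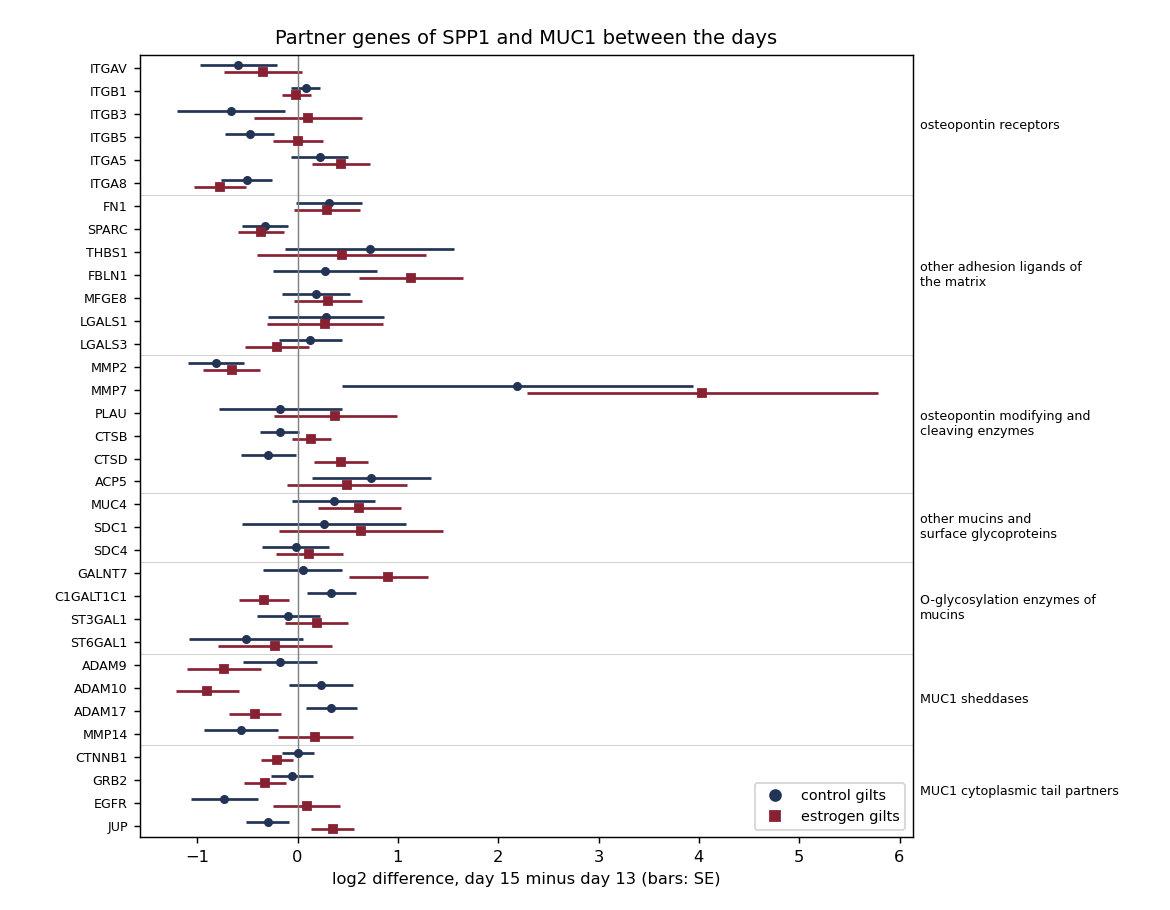
Log2 difference between day 15 and day 13 (horizontal axis, log2 units, bars are SE) for the tested genes of the 7 lists around SPP1 and MUC1, with controls and estrogen-treated gilts in separate colours. Genes of every list with more than 3 tested members lie on both sides of 0, MMP2 lies below 0 in both treatments, and none is past the adjusted threshold with all 14 arrays.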

How the data were processed

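Total endometrial RNA of 14 gilts was hybridised to Affymetrix porcine arrays. The deposited table holds 1-colour probe-set intensity values from the authors; the software and the scaling target are not given in the sources used here. Removing 188 control probe sets and the dimmest 30% by mean level over all arrays left 16754. Symbols came from the platform annotation: 10099 probe sets had 1 symbol, 198 several and 13826 none. Log2(signal + 16) was fitted with 4 group means in limma 3.58.1 (R 4.3.3; eBayes with trend), with Benjamini-Hochberg adjustment over all probe sets tested, and checked on simulated data. Exact permutation tests of the group comparisons were run in R, and those of the relations and pairs in Python 3.11.15 with numpy 2.4.6. Ranks and the adjustment over the relations used scipy 1.17.1. A fold change on this scale understates that of dim probe sets. The p-values of the group comparisons set each difference against the spread between these gilts, and limma also draws on the spread of all probe sets tested. The number of arrays limits precision.

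An array stood apart where its median correlation lay over 3 scaled MADs below the median. Same-numbered gilts were treated as possible pairs at day 13 only: their deviations correlated at 0.13 to 0.28 in 4 of 4 pairs, and over 0.1 in 1 of 3 pairs in each other comparison. The labels give no meaning for the numbers.

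Members and gene lists were chosen with earlier results of these data known. Named from each list were the genes with the lowest limma p, at most 2 per list, and any past the threshold; for likeness, the 5 highest and 2 lowest correlations. A gene's probe set with the highest mean level was used. Alternatives covered normalization, pseudocount, filter, array weights, covariates, replicate block and leaving out arrays.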

Additional observations from a re-analysis of the deposited data

Results flagged for a closer look

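The SPP1 signal of estrogen day 13 replicate 3 was 1587, a log2 level of 10.65, while the other 3 gilts of that group lay between 10159 and 13574. It stood out because its gap to the nearest gilt made up most of the range of the group. The check covered the day 13 groups, of 4 gilts each, for all 3 probe sets, 6 sets of values in all, and 1 was picked out; chance picks out about 1 in 20. The array was not among the 3 that stand apart, with a median correlation of 0.934 to the others, and its RNA quality score was 0.05.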

How the results depend on the processing

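Over 27 alternative settings and 21 results on the members, 0 values passed the adjusted threshold, and 40 of 542 changed sign. The brighter MUC1 probe set in controls kept its lower level at day 15 under all 27 settings (-1.08 to -0.62), with an unadjusted limma p below 0.05 in 25. With the replicate block its estrogen difference at day 13 was -0.50 (SE 0.33) and that of SPP1 -0.58 (SE 0.44); with only the day 13 groups in the blocked fit, a setting chosen after seeing the data, the SE for MUC1 was 0.16 (limma adjusted p = 0.952). The block changed no call.

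Signs turned as follows, and the cause was not tested. The dimmer MUC1 probe set with estrogen at day 15 (0.00) became -0.044 with quantile normalization, -0.029 with median centring, -0.0049 with a pseudocount of 64 and -0.072 with the RNA quality covariate. Its day difference in controls (-0.02) became 0.018 with the replicate block, 0.10 with the block and only the groups compared, and 0.0070 with the covariate. The brighter MUC1 day difference with estrogen (-0.05) became 0.24 with array weights, 0.038 with the block and only the groups compared, and 0.31 without the arrays that stand apart; its estrogen difference at day 15 became -0.29 with the covariate. For SPP1, estrogen at day 13 became 0.058 and the interaction -0.56 with array weights, the interaction -0.51 without the arrays that stand apart, estrogen at day 15 0.17 and the day difference in controls -0.062 with the covariate.

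Leaving out 1 gilt at a time gave, for SPP1, -1.08 to 0.13 (estrogen, day 13), -0.70 to -0.01 (estrogen, day 15), -0.76 to -0.15 (estrogen, both days), -0.32 to 0.51 (days, controls), -0.41 to 0.75 (days, estrogen), -0.12 to 0.46 (days, both treatments) and -0.58 to 0.64 (interaction). SPP1 turned sign without estrogen day 13 replicate 3 in 4 of these. For the brighter MUC1 probe set the ranges were -0.66 to -0.34, 0.07 to 0.72, -0.22 to 0.11, -1.08 to -0.62, -0.26 to 0.31, -0.59 to -0.31 and 0.57 to 1.22 in the same order, and for the dimmer one -0.44 to -0.17, -0.19 to 0.22, -0.24 to -0.04, -0.24 to 0.17, 0.20 to 0.41, 0.02 to 0.22 and 0.10 to 0.52.

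The SPP1 and MUC1 correlation passed an unadjusted 0.05 only with group means removed (-0.77 over 11 arrays, -0.61 over 14), and an adjusted 0.05 only over 14 (exact permutation, adjusted p = 0.0456). Probe sets called between the days with estrogen went from 0 to 3 without a filter, 99 with only those groups, 168 with array weights and 221 without the arrays that stand apart. Over both treatments they went from 1 to 0 with the replicate block, 9 with the covariate, 119 with array weights and 165 without those arrays.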
